A study of Mus musculus with 7 samples.

Results

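Krüppel-like factors are zinc finger transcription factors, and 10 of them are described here in endometrial epithelial cells of mice without ovaries: KLF2, KLF3, KLF4, KLF5, KLF6, KLF7, KLF9, KLF10, KLF13 and KLF15. Each is 1 row of a deposited table of 24353 genes, in which mouse symbols are written in capitals, and the table holds another 7 genes named KLF. The 10 members were selected on their values in these same 7 libraries, with earlier fold changes of them known. Their fold changes and adjusted p-values therefore describe where they stood among all genes and are not independent evidence.

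All 7 libraries come from C57BL/6 females whose ovaries were removed after puberty, at 6 to 7 weeks of age. Of these libraries, 2 come from mice given tamoxifen (0.5 mg per day) together with alpelisib (30 mg/kg per day), 2 from mice given the same dose of tamoxifen alone, 2 from mice with an estradiol pellet of 0.01 mg, and 1 from the vehicle arm, the state of estrogen deprivation. Every treatment lasted 28 days. Tamoxifen blocks the estrogen receptor in breast but partly activates it in the uterus, and alpelisib is an inhibitor of PI3K alpha, a lipid kinase downstream of growth factor receptors. The vehicle value of every gene is that of a single library, and the sources used here do not say whether it stands for 1 mouse or a pool. The sources do not describe how the epithelium was separated from the uterine horns.

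Krüppel-like factors bind CACCC boxes and GC-rich boxes in promoters through a row of zinc fingers at the C-terminal end that is very similar in all of them, while their N-terminal parts recruit different partners. KLF3 recruits CtBP and represses, and KLF9, KLF10 and KLF13 bring in the SIN3A and histone deacetylase complex. KLF2, KLF4, KLF5, KLF6, KLF7 and KLF15 activate many of their targets. In the mouse uterus KLF5 is needed in the epithelium for implantation, KLF9 is a partner of the progesterone receptor, and KLF15 opposes the estrogen-driven expression of MCM2 in the epithelium.

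Values are FPKM, that is, fragments scaled to the length of the transcript and to the size of the library, a scale per length on which the levels of genes can be set side by side. Steps among the lowest values put the depth at 16100000 to 19300000 fragments in 6 libraries, while estradiol library 2 showed no such step and its depth is unknown. The median gene differed between the replicates by 0.0996 on the log2 scale with tamoxifen plus alpelisib, by 0.188 with tamoxifen and by 0.249 with estradiol. Of the epithelial markers, the keratin gene KRT8 had 1551 and 1719.9 FPKM with tamoxifen plus alpelisib, 1076 and 1297 with tamoxifen, 839 and 769 with estradiol and 2295 with vehicle, while KRT19 had 1286 and 1318 FPKM with tamoxifen plus alpelisib, 1356 and 1974 with tamoxifen, 705 and 595 with estradiol and 820.0 with vehicle. The adhesion gene EPCAM ranged from 202 to 289 FPKM over the 7 libraries. KRT8, KRT19 and EPCAM were thus high throughout but not in 1 order of groups. Other epithelial markers on the list varied more. WNT7A had 3.88 and 4.06 FPKM with tamoxifen plus alpelisib, 3.48 and 4.77 with tamoxifen, 45.2 and 37.3 with estradiol and 29.9 with vehicle. CLDN4 ranged from 95.2 to 1442 FPKM over the 7 libraries. All of these genes were chosen after their values were seen. Markers of other cells moved with the groups. The 10 stromal markers summed to 121 and 129 FPKM with tamoxifen plus alpelisib, 55.5 and 54.9 with tamoxifen, 190.2 and 181 with estradiol and 267 with vehicle. Decorin (DCN) made up 86.8 and 93.1 FPKM of this sum with tamoxifen plus alpelisib and 31.7 and 30.9 with tamoxifen, and the median log2 fold change of the list between these groups was -0.06. The 8 endothelial markers summed to 1.45 and 1.56 FPKM with tamoxifen plus alpelisib, 2.77 and 2.35 with tamoxifen, 15.2 and 11.4 with estradiol and 21.6 with vehicle, with CLDN5 at 0 in both libraries of tamoxifen plus alpelisib. In bulk RNA, fewer cells of a type and less RNA per cell cannot be told apart.

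Summed over the 10 genes, Krüppel-like factor transcripts stood at 655 and 666 FPKM with tamoxifen plus alpelisib, at 274 and 405 with tamoxifen, at 385 and 345 with estradiol and at 884 in the vehicle library. The libraries of tamoxifen plus alpelisib lay between vehicle and the other treatments, and those of tamoxifen and estradiol overlapped. KLF6 was the most abundant member in 6 libraries, with shares of the sum from 39.8% in tamoxifen library 1 to 54.7% in the vehicle library. The exception was tamoxifen library 2, in which KLF4 took 36.4% and KLF6 35.2%. KLF4 was second in the other libraries except estradiol library 2, where it took 12.1% and KLF5 14.3%. KLF15 was the scarcest member in every library.

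**Figure D1:**
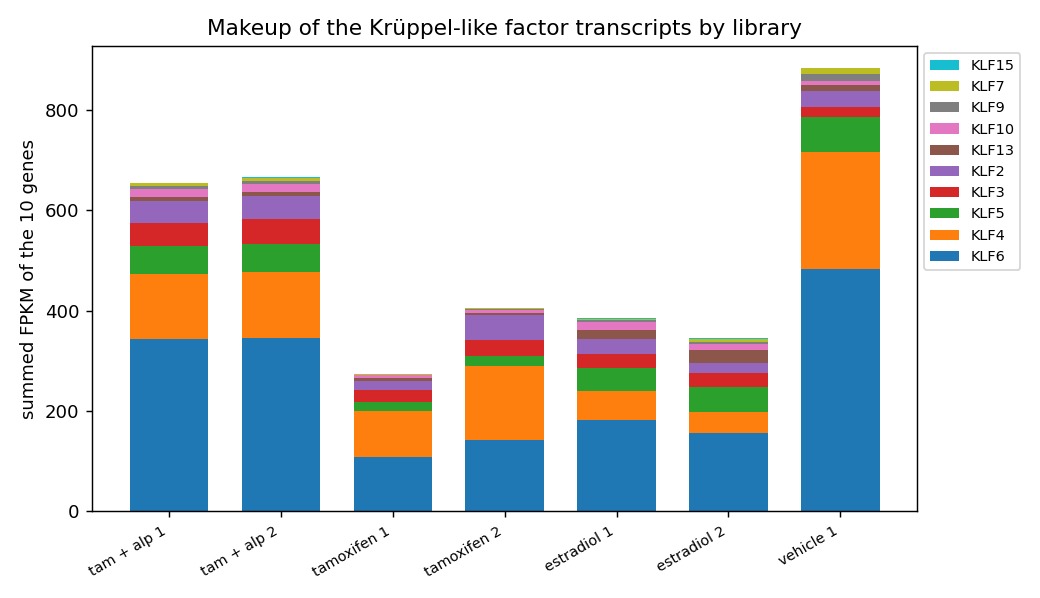
Stacked bars give the FPKM of the 10 Krüppel-like factors in each of the 7 libraries, which add up to 655 and 666 with tamoxifen plus alpelisib (tam + alp), 274 and 405 with tamoxifen, 385 and 345 with estradiol and 884 with vehicle. KLF6 and KLF4 together fill more than the other 8 members in every bar.

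The promoters of KLF6, KLF7 and KLF9 are shown because these genes moved together, those of KLF4 and KLF3 as members with other patterns, and all of them for the boxes that the family itself binds. The windows run from 250 bases before to 50 after the start of the gene (RefSeq, build GRCm38.p6, 5′ to 3′ on the strand of the gene). Of the 10 members 8 had a window, KLF5 and KLF10 being the ones without. KLF6 lies at chr13:5861239-5861538 on the plus strand, KLF7 at chr1:64121340-64121639 on the minus strand, KLF9 at chr19:23140976-23141275 on the plus strand, KLF4 at chr4:55532426-55532725 on the minus strand and KLF3 at chr5:64803271-64803570 on the plus strand. Capitals mark every match, on either strand, to the CACCC box (CCACCC), the GC box (GGGCGG) or the FOXO motif (TGTTTAC).
KLF6: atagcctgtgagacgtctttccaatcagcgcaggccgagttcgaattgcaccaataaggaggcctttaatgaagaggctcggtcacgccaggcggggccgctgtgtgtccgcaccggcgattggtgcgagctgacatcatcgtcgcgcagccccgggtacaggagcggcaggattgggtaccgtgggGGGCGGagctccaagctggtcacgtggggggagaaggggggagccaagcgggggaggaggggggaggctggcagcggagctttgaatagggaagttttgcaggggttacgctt
KLF7: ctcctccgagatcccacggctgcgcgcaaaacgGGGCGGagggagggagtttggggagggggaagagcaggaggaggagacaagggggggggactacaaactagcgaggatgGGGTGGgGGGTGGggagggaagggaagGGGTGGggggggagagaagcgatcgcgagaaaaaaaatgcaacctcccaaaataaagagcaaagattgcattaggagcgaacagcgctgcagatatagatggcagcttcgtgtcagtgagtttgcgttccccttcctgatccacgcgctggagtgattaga
KLF9: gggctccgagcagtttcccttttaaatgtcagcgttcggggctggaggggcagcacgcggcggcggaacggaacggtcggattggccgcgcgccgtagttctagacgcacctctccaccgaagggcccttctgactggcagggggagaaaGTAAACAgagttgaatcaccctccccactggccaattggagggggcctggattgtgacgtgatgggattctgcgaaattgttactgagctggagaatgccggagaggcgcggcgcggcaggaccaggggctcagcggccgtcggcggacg
KLF4: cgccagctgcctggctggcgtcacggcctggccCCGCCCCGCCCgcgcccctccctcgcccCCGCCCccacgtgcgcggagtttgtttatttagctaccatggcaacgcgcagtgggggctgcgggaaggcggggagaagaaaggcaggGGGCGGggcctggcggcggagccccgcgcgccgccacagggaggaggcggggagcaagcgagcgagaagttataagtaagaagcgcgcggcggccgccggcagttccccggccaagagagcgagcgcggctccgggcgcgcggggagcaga
KLF3: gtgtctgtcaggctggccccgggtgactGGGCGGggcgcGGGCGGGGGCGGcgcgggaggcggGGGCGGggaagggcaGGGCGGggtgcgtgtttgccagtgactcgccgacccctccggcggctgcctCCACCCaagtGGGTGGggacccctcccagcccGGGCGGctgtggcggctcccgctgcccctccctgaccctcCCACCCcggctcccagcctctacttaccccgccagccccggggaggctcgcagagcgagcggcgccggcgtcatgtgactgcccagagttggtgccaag

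The KLF6 window held 1 GC box and no CACCC box, and the KLF7 window 1 GC box and 3 CACCC boxes. The KLF4 window held 4 GC boxes, among them 1 overlapping pair, and no CACCC box. The KLF3 window held the most of any member, 6 GC boxes and 3 CACCC boxes. Across all 32851 windows of the same length, 35.7% held a GC box and 31.5% a CACCC box. The KLF9 window held neither box, and held the FOXO motif, reading GTAAACA on this strand, with its first base 100 bases before the start. That motif occurred in 3.65% of all windows and in no other member's window. The AP-1 motif TGAGTCA (5.2% of all windows), the CRE motif TGACGTCA (1.79%), the glucocorticoid receptor half-site AGAACA (19.0%) and the estrogen receptor half-site AGGTCA (16.3%) were in none of the 8 windows. These matches describe the letters of a short window, and binding was not tested.

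KLF5, KLF6, KLF7 and KLF9 shared a pattern, with their lowest libraries under tamoxifen and their highest under vehicle. KLF6, a factor induced early in injured tissue, had 344 and 346 FPKM with tamoxifen plus alpelisib, 109 and 142 with tamoxifen, 182 and 156 with estradiol and 484 with vehicle. KLF5, which keeps intestinal crypts and basal epithelium proliferating, had 55.7 and 54.9 FPKM with tamoxifen plus alpelisib, 18.6 and 20.0 with tamoxifen, 46.1 and 49.3 with estradiol and 70.7 with vehicle. For both genes the libraries of tamoxifen plus alpelisib lay above those of tamoxifen and below vehicle, with no overlap. KLF7, best known from the development of sensory neurons, had 6.32 and 6.13 FPKM with tamoxifen plus alpelisib, 1.01 and 1.02 with tamoxifen, 3.85 and 5.08 with estradiol and 10.7 with vehicle. KLF9 had 6.43 and 7.05 FPKM with tamoxifen plus alpelisib, 1.35 and 1.69 with tamoxifen, 3.63 and 4.94 with estradiol and 13.9 with vehicle. In KLF7 and KLF9, too, no library of tamoxifen plus alpelisib overlapped with tamoxifen, estradiol or vehicle. The share of all genes separated in this way was not counted, and vehicle is a single library. The tamoxifen values of KLF7 rest on an estimated 138 and 128 fragments and those of KLF9 on 108 and 123.

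**Figure D2:**
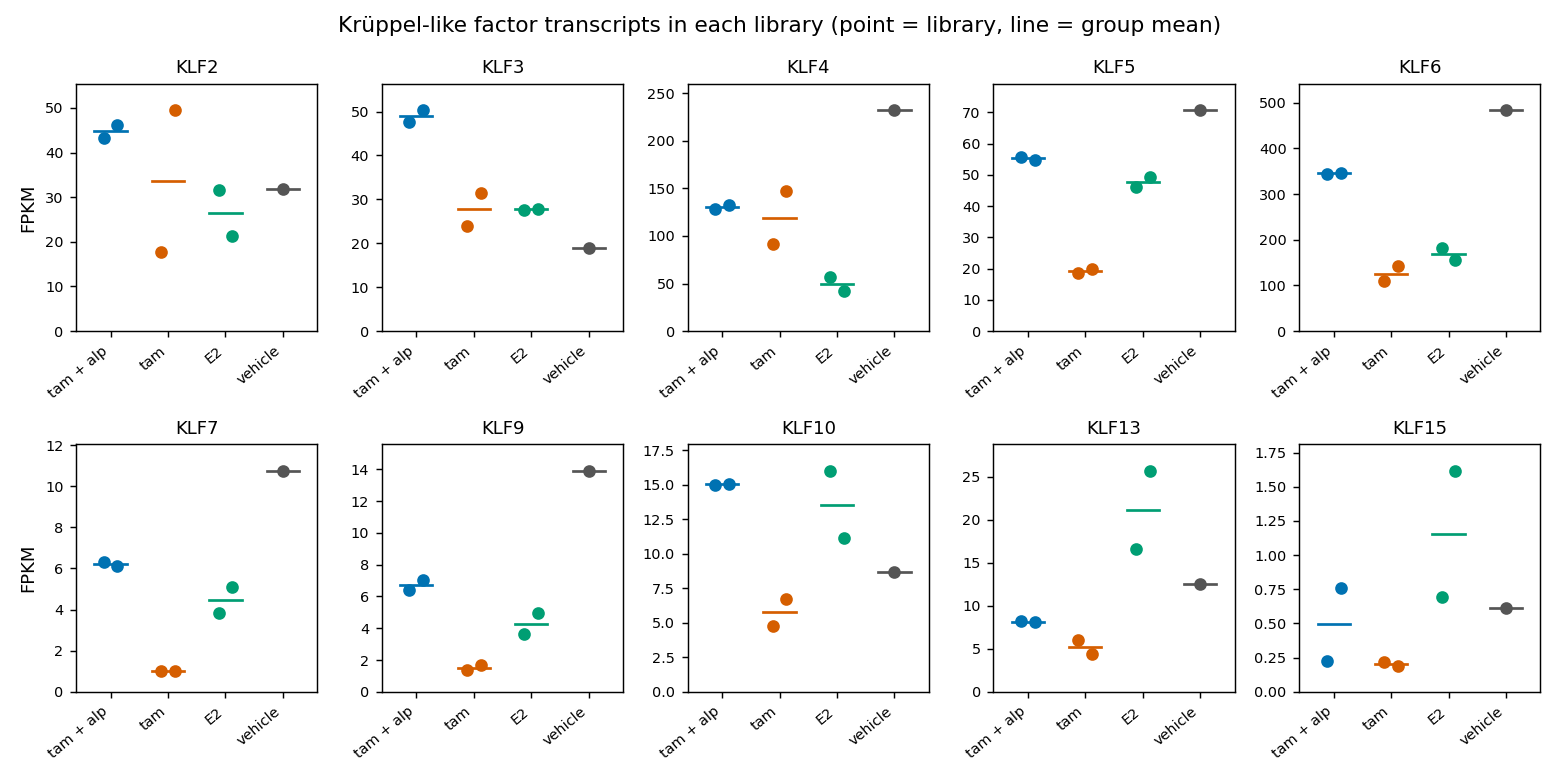
Points give the FPKM of each member in each library and lines the group means, with tamoxifen plus alpelisib (tam + alp), tamoxifen (tam), estradiol (E2) and the single vehicle library from left to right. KLF5, KLF6, KLF7 and KLF9 have their lowest values with tamoxifen and their highest with vehicle, while KLF13 is highest with estradiol and KLF3 with tamoxifen plus alpelisib.

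Tamoxifen plus alpelisib against tamoxifen sets the added inhibition of PI3K alpha against the drug alone. Of the 10 members 6 rose and 0 fell at an adjusted p under 0.05 (limma, Benjamini-Hochberg over all 12314 genes tested), where 6.93% rose and 4.81% fell among all genes tested. The members' median log2 fold change was 1.04, against -0.03 for all genes tested. Fold changes here are of FPKM + 1, which understates those of scarce genes. KLF7 rose to 6.22 ± 0.137 FPKM with tamoxifen plus alpelisib, against 1.02 ± 0.00952 FPKM with tamoxifen (SD, n = 2 each), a log2 fold change of 1.84 ± 0.15 (SE; limma, adjusted p = 0.00355). KLF9 rose by 1.62 ± 0.17 (adjusted p = 0.00550), KLF5 by 1.48 ± 0.13 (adjusted p = 0.00418) and KLF6 by 1.46 ± 0.21 (adjusted p = 0.0108) on the same scale.

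The repressors KLF10 and KLF3 completed the 6 that rose. KLF10, a factor induced early by TGF-beta, had 15.0 and 15.1 FPKM with tamoxifen plus alpelisib, 4.77 and 6.73 with tamoxifen, 16.0 and 11.1 with estradiol and 8.71 with vehicle. It rose by 1.26 ± 0.22 (adjusted p = 0.0194) to a level that overlapped with estradiol and lay above vehicle. KLF3 had 47.6 and 50.3 FPKM with tamoxifen plus alpelisib, 24.0 and 31.5 with tamoxifen, 27.7 and 27.8 with estradiol and 18.9 with vehicle. It rose by 0.81 ± 0.16 (adjusted p = 0.0300) and was highest with tamoxifen plus alpelisib and lowest with vehicle, while its tamoxifen libraries lay on either side of those of estradiol. All 6 calls ended without either library of tamoxifen plus alpelisib, when 18 or 14 genes of the whole table were called, and without tamoxifen library 1 those of KLF3, KLF6 and KLF10 ended. The calls of KLF3 and KLF10 also ended without a filter on low values and with a replicate block. In the same comparison 3 of 10 stromal markers were higher and 1 was lower, and 0 of 7 endothelial markers tested were higher and 2 lower. Lower, too, were 3 of 5 smooth muscle and 2 of 4 erythroid markers, while 1 of 8 epithelial markers was higher. Of the erythroid markers that were lower, 1 reached 1 FPKM only with tamoxifen, which fixed its direction. Of 3 neutrophil markers tested 2 were higher and 0 lower. S100A8 had 6.98 and 7.37 FPKM with tamoxifen plus alpelisib and was listed at 0 in both tamoxifen libraries. S100A9 had 40.2 and 43.2 FPKM with tamoxifen plus alpelisib, against 2.996 and 6.32 with tamoxifen. LY6G had 1.53 and 1.70, against 2.28 and 2.10, and was not called (limma, adjusted p = 0.755). The part of all these markers in these results was not tested.

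The other 4 members did not pass. KLF4, which drives epithelial barrier formation and differentiation, had 128 and 132 FPKM with tamoxifen plus alpelisib, 91.4 and 147 with tamoxifen, 56.8 and 41.8 with estradiol and 232 with vehicle. Its tamoxifen libraries lay on either side of those with alpelisib, and its log2 fold change was 0.16 ± 0.27, with a 95% interval from -0.49 to 0.82. KLF2, a factor of quiescent endothelium and lymphocytes, had 43.3 and 46.3 FPKM with tamoxifen plus alpelisib, 17.7 and 49.5 with tamoxifen, 31.7 and 21.4 with estradiol and 31.9 with vehicle. Its tamoxifen libraries were the lowest and the highest of all 7, so that no order of its groups can be read (log2 fold change 0.58 ± 0.45, 95% interval from -0.52 to 1.67). All 13 of the 13 immediate early factors listed, such as FOS and JUNB, were higher in tamoxifen library 2 than in library 1 as well. The share of all genes that were higher in library 2 was not counted, so this count has no background to be read against. Over all genes, summed FPKM was 403562 in tamoxifen library 2 and 320527 in library 1, and the median-of-ratios size factors were 0.968 and 0.883. FOS had 626 FPKM in library 2 and 305 in library 1, and JUNB 655 and 273, both genes chosen after their values were seen, and the part of this difference in KLF2 and KLF4 was not tested. The endothelial markers summed to 2.77 FPKM in tamoxifen library 1, where KLF2 was lowest, and to 2.35 in library 2, where it was highest. Their sums were 1.45 and 1.56 FPKM with tamoxifen plus alpelisib, 15.2 and 11.4 with estradiol and 21.6 with vehicle. The part of endothelial cells in the KLF2 values was not tested. KLF13 stood at 0.57 ± 0.23 (adjusted p = 0.170) and KLF15 at 0.29 ± 0.26 (adjusted p = 0.519) on the log2 scale.

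Tamoxifen against vehicle shows the drug in the absence of ovarian estrogen. Of the 10 members 0 rose and 5 fell, where 14.9% rose and 24.1% fell among all genes tested, and the median log2 fold change was -1.07 against -0.12 for all genes. Of all genes called, 38.2% were higher, and 49.7% under median-of-ratios scaling, which moved the median of all genes from -0.12 to 0.024 on the log2 scale. KLF9 fell to 1.52 ± 0.241 FPKM with tamoxifen (SD, n = 2), against 13.9 in the vehicle library (log2 fold change -2.57 ± 0.20, limma, adjusted p = 0.000363). KLF7 fell to 1.02 ± 0.00952 FPKM with tamoxifen (SD, n = 2), against 10.7 with vehicle (-2.54 ± 0.18, limma, adjusted p = 0.000260). KLF6 fell by 1.95 ± 0.25 (adjusted p = 0.00208) and KLF5 by 1.83 ± 0.16 (adjusted p = 0.000507) on the log2 scale.

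KLF13, a factor that activates CCL5 in T cells, had 8.18 and 8.08 FPKM with tamoxifen plus alpelisib, 6.05 and 4.38 with tamoxifen, 16.6 and 25.7 with estradiol and 12.6 with vehicle. It fell by 1.14 ± 0.29 (adjusted p = 0.0224) on the log2 scale with tamoxifen against vehicle, a call that ended without tamoxifen library 2 or without either library of tamoxifen plus alpelisib. KLF4 stood lower in both tamoxifen libraries than in vehicle, at -0.99 ± 0.33 (adjusted p = 0.0555), and passed without tamoxifen library 2. KLF3 stood higher in both, at 0.52 ± 0.20 (adjusted p = 0.0857), and passed without tamoxifen library 1. KLF10 had a log2 fold change of -0.54 ± 0.26, KLF15 of -0.42 ± 0.32 and KLF2 of -0.10 ± 0.55, none past the threshold, and that of KLF2 was 0.086 under median-of-ratios scaling. In this comparison 10 of 10 stromal, 6 of 7 endothelial, 5 of 5 smooth muscle and 4 of 8 epithelial markers were lower with tamoxifen, and none of these was higher, while 4 of 4 erythroid markers and 1 of 4 leukocyte markers tested were higher and 1 leukocyte marker was lower. Of these, 2 stromal, 1 endothelial and 1 smooth muscle marker reached the filter of 1 FPKM only in the vehicle library, and 1 erythroid marker only with tamoxifen, which fixed their direction. Their part in the members' values was not tested.

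Tamoxifen plus alpelisib against vehicle used the same single vehicle library and the same libraries of the combination. Of the 10 members 1 rose and 2 fell, where 13.1% rose and 21.8% fell among all genes. Of all genes called, 37.7% were higher, and 51.2% under median-of-ratios scaling, which moved the median of all genes from -0.15 to -0.0014 on the log2 scale. KLF3 rose to 49.0 ± 1.95 FPKM with tamoxifen plus alpelisib (SD, n = 2), against 18.9 with vehicle (log2 fold change 1.33 ± 0.20, limma, adjusted p = 0.00437). KLF9 fell by 0.95 ± 0.20 (adjusted p = 0.0154) and KLF7 by 0.70 ± 0.18 (adjusted p = 0.0282) on the log2 scale, and both calls ended without either library of tamoxifen plus alpelisib. KLF5 had -0.35 ± 0.16 with a 95% interval from -0.74 to 0.04, and KLF6 had -0.49 ± 0.25 with an interval from -1.10 to 0.12. For these genes the combination was therefore not told apart from vehicle, nor shown to equal it. KLF10 stood at 0.72 ± 0.26 (adjusted p = 0.0777) with both libraries above vehicle, and KLF4 at -0.83 ± 0.33 (adjusted p = 0.0986) with both below. Here 8 of 10 stromal, 5 of 7 endothelial, 5 of 5 smooth muscle and 3 of 8 epithelial markers were lower. Of 4 leukocyte markers tested 1 was lower, while 2 of 3 neutrophil and 2 of 4 erythroid markers were higher. Of those lower, 1 stromal and 1 smooth muscle marker reached the filter of 1 FPKM only in the vehicle library, which fixed their direction. The part of these markers was not tested. With the libraries of these groups alone in the fit, 9 members were called in place of 3. These 9 were all that had a value there, as KLF15 had none. The spread of that fit came only from the 2 libraries of tamoxifen plus alpelisib. The median gene differed between these by 0.0996 on the log2 scale, the least of any replicate pair. The share of all genes called in that fit is not given here, so the count has no background to be read against.

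Estradiol against vehicle gives the response to the hormone itself. Of the 10 members 0 rose and 5 fell, where 22.7% rose and 12.8% fell among all genes. Of all genes called, 64% were higher, and 48.4% under median-of-ratios scaling, which moved the median of all genes from 0.12 to -0.0035 on the log2 scale. KLF4 fell to 49.3 ± 10.6 FPKM with estradiol (SD, n = 2), against 232 with vehicle (log2 fold change -2.23 ± 0.33, limma, adjusted p = 0.00455). KLF6 fell by 1.51 ± 0.25 (adjusted p = 0.00664), KLF9 by 1.51 ± 0.20 (adjusted p = 0.00352) and KLF7 by 1.11 ± 0.18 (adjusted p = 0.00636) on the log2 scale. KLF5 fell by 0.56 ± 0.16 (adjusted p = 0.0379), a call that ended without either library of tamoxifen plus alpelisib. KLF13 stood above vehicle in both estradiol libraries, at 0.67 ± 0.29 (adjusted p = 0.113), and passed without estradiol library 1. KLF3 stood at 0.53 ± 0.20 (adjusted p = 0.0846) and passed without either tamoxifen library. KLF10 had 0.57 ± 0.26, KLF15 0.38 ± 0.32 and KLF2 -0.28 ± 0.55, none past the threshold. With the libraries of these groups alone in the fit, 2 members were called in place of 5, and the calls of KLF5, KLF6 and KLF7 were lost. Markers moved here too, with 5 of 5 smooth muscle, 5 of 10 stromal, 3 of 7 endothelial and 4 of 8 epithelial markers lower. Higher with estradiol were 2 of 10 stromal, 2 of 4 leukocyte, 1 of 3 neutrophil and 1 of 4 erythroid markers. Of those lower, 2 stromal markers and 1 smooth muscle marker reached the filter only in the vehicle library. Both leukocyte markers that were higher reached it only with estradiol. The part of all the markers named here was not tested.

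**Figure D3:**
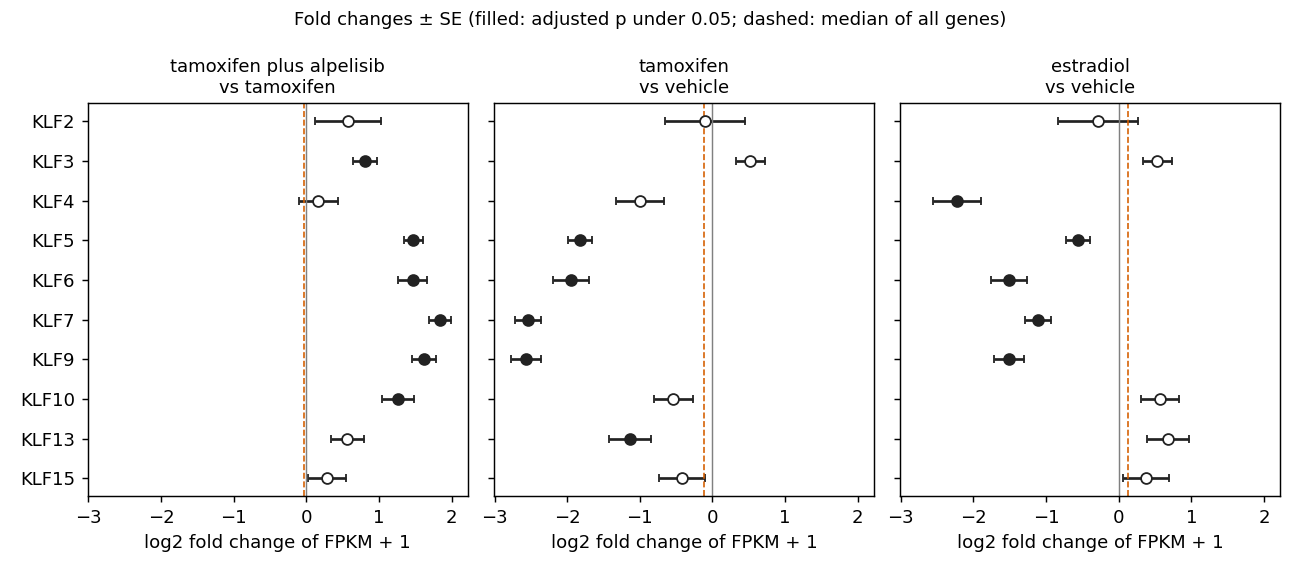
Log2 fold changes of FPKM + 1 for the 10 members, with bars for the standard error (filled, adjusted p under 0.05 over all genes; dashed line, median of all genes), in 3 comparisons that share the tamoxifen libraries (left and middle) or the vehicle library (middle and right). KLF5, KLF6, KLF7 and KLF9 are filled in all 3 panels, to the right of 0 in the left panel and to the left of 0 in the others.

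Tamoxifen against estradiol shows where the partial agonist and the hormone left the family at different levels. Of the 10 members 1 rose and 6 fell, where 12.3% rose and 36.2% fell among all genes. KLF15, 1 of the 6 that fell, reached the filter of 1 FPKM only with estradiol, which fixed its direction. Of all genes called, 25.4% were higher, and 52.4% under median-of-ratios scaling, which moved the median of all genes from -0.26 to 0.012 on the log2 scale. KLF4 rose to 119 ± 39.6 FPKM with tamoxifen, against 49.3 ± 10.6 FPKM with estradiol (SD, n = 2 each; log2 fold change 1.24 ± 0.27, limma, adjusted p = 0.0112), and this call ended without estradiol library 2. KLF13 fell by 1.81 ± 0.23 (adjusted p = 0.00170) on the log2 scale, with every tamoxifen library below both estradiol libraries. KLF7 fell by 1.43 ± 0.15 (adjusted p = 0.000825), KLF5 by 1.26 ± 0.13 (adjusted p = 0.000805), KLF10 by 1.10 ± 0.22 (adjusted p = 0.00753) and KLF9 by 1.06 ± 0.17 (adjusted p = 0.00357). KLF6 stood at -0.44 ± 0.21 (adjusted p = 0.125) although both tamoxifen libraries lay below both of estradiol. KLF3 had -0.01 ± 0.16, and 0.34 under median-of-ratios scaling. KLF2 had 0.18 ± 0.45, and 0.90 without tamoxifen library 1, where it passed. In this comparison 6 of 7 endothelial, 6 of 10 stromal and 3 of 4 leukocyte markers were lower with tamoxifen. Higher were 5 of 5 smooth muscle, 4 of 4 erythroid and 1 of 10 stromal markers. Of 8 epithelial markers 1 was higher and 1 lower, and of 3 neutrophil markers tested 1 was higher and 1 lower. Of all these, 1 endothelial and 2 leukocyte markers reached the filter of 1 FPKM only with estradiol. Only with tamoxifen did 1 erythroid marker reach it. The filter fixed the direction of these. The part of these markers was not tested.

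KLF15, which glucocorticoids induce and which drives amino acid breakdown in muscle, was the other member that fell. It had 0.227 and 0.763 FPKM with tamoxifen plus alpelisib, 0.221 and 0.188 with tamoxifen, 0.690 and 1.62 with estradiol and 0.615 with vehicle. Only estradiol library 2 brought it over the filter of 1 FPKM, so it had to stand high with estradiol to be tested at all. Its fall was 0.80 ± 0.26 (adjusted p = 0.0429) on the log2 scale, and the call ended without either tamoxifen library. The tamoxifen values rest on an estimated 10 and 8 fragments, and those with alpelisib on 10 and 30. The other 9 members reached 1 FPKM in all 7 libraries.

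Of the other KLF genes and the related SP genes, 16 in the table, 8 reached the filter. Among these 3 rose and 0 fell with alpelisib added to tamoxifen (median log2 fold change 0.18), 0 rose and 4 fell with tamoxifen against vehicle (median -0.53) and 1 rose and 1 fell with estradiol against vehicle (median -0.06). SP4, 1 of the 4 that fell, reached the filter only in the vehicle library, and SP5, the 1 that rose with estradiol, only with estradiol, so the filter fixed these directions. KLF16, a repressor of the KLF9 and KLF13 subgroup, had 8.92 and 8.63 FPKM with tamoxifen plus alpelisib, 4.26 and 4.61 with tamoxifen, 4.53 and 5.13 with estradiol and 10.5 with vehicle. It rose by 0.85 ± 0.13 (adjusted p = 0.0127) with alpelisib added and fell by 1.08 ± 0.15 (adjusted p = 0.00296) with tamoxifen against vehicle. KLF11, a SIN3A-binding relative of KLF10, had 8.77 and 8.74 FPKM with tamoxifen plus alpelisib, 3.92 and 5.56 with tamoxifen, 9.21 and 8.74 with estradiol and 11.8 with vehicle, and rose by 0.78 ± 0.17 (adjusted p = 0.0346) with alpelisib added. SP2 rose by 0.75 ± 0.15 (adjusted p = 0.0286) there, while the general activator SP1 had 0.23 ± 0.14 (adjusted p = 0.336). SP5, a Wnt target, had 2.60 and 1.59 FPKM with estradiol, against 0.202 with vehicle. KLF8, KLF12, KLF14 and KLF17 stayed below the filter in every library.

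Among 18 tested partners and regulators of these factors, 2 rose and 1 fell with alpelisib added to tamoxifen (median log2 fold change 0.07), 0 rose and 5 fell with tamoxifen against vehicle (median -0.34) and 5 rose and 1 fell with estradiol against vehicle (median 0.22). Among all genes tested, 6.93% rose and 4.81% fell with alpelisib added. The shares were 14.9% and 24.1% with tamoxifen against vehicle and 22.7% and 12.8% with estradiol against vehicle. Whether this list differed from all genes was not tested. MEF2D, of the MEF2 factors through which ERK5 induces KLF2 and KLF4 in endothelium, had 16.5 and 16.7 FPKM with tamoxifen plus alpelisib, 7.20 and 9.19 with tamoxifen, 5.97 and 5.61 with estradiol and 16.9 with vehicle. It rose by 0.95 ± 0.15 (adjusted p = 0.0142) with alpelisib added and fell by 0.97 ± 0.18 (adjusted p = 0.00753) with tamoxifen against vehicle. MEF2A rose by 0.61 ± 0.14 (adjusted p = 0.0401) and fell by 0.68 ± 0.17 (adjusted p = 0.0212) in the same comparisons. The histone deacetylase HDAC2 fell by 0.72 ± 0.16 (adjusted p = 0.0372) with alpelisib added. WWP1, a ubiquitin ligase for KLF2 and KLF5, fell by 0.70 ± 0.20 (adjusted p = 0.0359) and BTRC, another ligase subunit, by 0.70 ± 0.16 (adjusted p = 0.0177) with tamoxifen against vehicle.

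Genes known from other tissues as targets of the family did not move in 1 direction. Of 17 tested, 2 rose and 3 fell with alpelisib added (median log2 fold change 0.21), 3 rose and 8 fell with tamoxifen against vehicle (median -0.51) and 2 rose and 6 fell with estradiol against vehicle (median -0.54). In both comparisons with vehicle, 1 of those that fell reached the filter only in the vehicle library. Cyclin D1 (CCND1), a KLF5 target, had 9.27 and 11.0 FPKM with tamoxifen plus alpelisib, 9.61 and 7.75 with tamoxifen, 21.5 and 21.9 with estradiol and 51.5 with vehicle, and fell by 2.45 ± 0.19 (adjusted p = 0.000324) with tamoxifen against vehicle. The vehicle library stood above all others. PRODH, a proline-degrading enzyme under KLF15 in muscle and liver, had 5.05 and 5.78 FPKM with tamoxifen plus alpelisib, 3.38 and 3.81 with tamoxifen, 14.4 and 10.8 with estradiol and 17.5 with vehicle, and fell by 2.01 ± 0.21 (adjusted p = 0.000902). With alpelisib added, the endoglin gene ENG, a KLF6 target, fell by 1.62 ± 0.17 (adjusted p = 0.00550) and the survivin gene BIRC5 by 1.14 ± 0.20 (adjusted p = 0.0220), while TGFB1, another KLF6 target, rose by 0.81 ± 0.13 (adjusted p = 0.0164).

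The replicative helicase genes MCM2 to MCM7 include the gene on which KLF15 and estrogen act in opposite ways in the mouse uterus. Of these 6, 0 rose and 3 fell with alpelisib added (median log2 fold change -0.56), 0 rose and 5 fell with tamoxifen against vehicle (median -0.98) and 6 rose and 0 fell with estradiol against vehicle (median 1.01). MCM2 had 5.07 and 5.33 FPKM with tamoxifen plus alpelisib, 10.2 and 9.41 with tamoxifen, 44.6 and 41.3 with estradiol and 20.7 with vehicle, so that no groups overlapped. It fell by 0.80 ± 0.12 (adjusted p = 0.0144) with alpelisib added.

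Glucocorticoids induce KLF9 and KLF15. Of 8 genes of the glucocorticoid response, which include the receptor gene NR3C1, 4 rose and 0 fell with alpelisib added (median log2 fold change 0.87), and 0 rose and 5 fell with tamoxifen against vehicle, NR3C1 among them and 1 other that reached the filter only in the vehicle library. ERRFI1, an inhibitor of the EGF receptor, rose by 1.69 ± 0.23 (adjusted p = 0.0104), the FK506-binding protein gene FKBP5 by 0.87 ± 0.13 (adjusted p = 0.0140) and the clock gene PER1 by 1.60 ± 0.27 (adjusted p = 0.0187) with alpelisib added. Of 13 immediate early factors 3 rose and 0 fell with alpelisib added (median 0.69), 1 rose and 5 fell with tamoxifen against vehicle and 0 rose and 7 fell with estradiol against vehicle. FOSL1 rose by 2.55 ± 0.36 (adjusted p = 0.0105) and MYC by 1.91 ± 0.28 (adjusted p = 0.0121) with alpelisib added. Of 13 FOXO factors and targets 8 rose and 0 fell with alpelisib added (median 0.85) and 2 rose and 6 fell with tamoxifen against vehicle, 1 of the falls being of a gene that reached the filter only in the vehicle library. Of 8 genes of the uterine steroid response 0 rose and 0 fell with alpelisib added (median -0.04), the lowest adjusted p being that of PGR (-0.37 ± 0.12, limma, adjusted p = 0.0997), and 3 rose and 2 fell with estradiol against vehicle. Both that fell, HAND2 and BMP2, reached the filter only in the vehicle library, which fixed their direction. The share of all genes that passed in each comparison is given above, and nothing particular to these lists was tested.

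Among the members themselves, Pearson's r of log2(FPKM + 1) over the 7 libraries was 0.99 for KLF5 and KLF7, 0.98 for KLF7 and KLF9 and 0.93 for KLF6 and KLF9. It was 0.88 for KLF6 and KLF7 and 0.84 for KLF5 and KLF6. The lowest r of any pair of members was -0.61, for KLF4 and KLF13. The libraries fall into the 4 groups, so these values describe group means more than single libraries, and no p is given. For the 3 members with the widest range, the genes most like them were sought among 6622 genes with a mean of at least 5 FPKM. KLF9 was nearest to AFF1 (r = 0.993), ARHGAP42 (0.989) and NDEL1 (0.989). KLF7 was nearest to ACPP (r = 0.996) and USP6NL (0.992). ACPP, an acid phosphatase, had 20.2 and 20.7 FPKM with tamoxifen plus alpelisib, 7.70 and 7.37 with tamoxifen, 16.5 and 17.5 with estradiol and 28.1 with vehicle. KLF4 was nearest to SARAF (r = 0.990), SMIM19 (0.985) and the stress response factor ATF4 (0.980). ATF4 had 167 and 175 FPKM with tamoxifen plus alpelisib, 76.3 and 147 with tamoxifen, 56.2 and 28.3 with estradiol and 289 with vehicle, with its lowest libraries under estradiol, as for KLF4.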

How the data were processed

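Total RNA of mouse endometrial epithelial cells was sequenced in 7 libraries, after treatment of 6 mice per arm and, for estradiol, 2 mice, per the labels' protocols. The deposited values are FPKM made by the authors, with CASAVA, Bowtie and Cufflinks named without versions in the submitters' processing notes. The only genome build named there is hg19, a human one, although the symbols are those of mouse genes. The annotation and the handling of reads that map to several places are not given in the sources used here. Although the deposited table is named for counts, its values are not whole numbers, and no count test was run.

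From these values log2(FPKM + 1) was taken for the 12314 of 24353 genes with at least 1 FPKM in at least 1 library, with 6155 genes at 0 throughout. A model of 4 group means over all 7 libraries was fitted with limma 3.58.1 in R 4.3.3 (trend; 3 residual and 3.27 prior degrees of freedom), with Benjamini-Hochberg adjustment over all genes in each of 5 comparisons and a threshold of 0.05. The vehicle library is assumed to vary like the others. The comparisons share libraries, the vehicle one in particular, and are not independent. The fit was checked on simulated data. Members, gene lists (other family genes, partners, targets, glucocorticoid response, immediate early, FOXO, MCM and uterine steroid response genes, and markers of epithelium, stroma, endothelium, smooth muscle, leukocytes, neutrophils and erythroid cells) and tests were chosen with earlier results of these data known. All members are named, and of each list up to 4 genes of lowest adjusted p in a comparison. Nearest patterns are the 3 genes outside the family with the highest r for each of the 3 members of widest range. Some genes that these rules name are not reported here.

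Depth was estimated from the FPKM of genes with 1 transcript, whose lowest values come in steps of single fragments, and fragments per member from this depth and its longest transcript. Promoter windows come from a RefSeq table. Python 3.11.15, numpy 2.4.6, pandas 2.3.3 and matplotlib 3.10.9 were used.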

Additional observations from a re-analysis of the deposited data

How the results depend on the processing

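The alternatives were median-of-ratios scaling, no filter, 1 FPKM in at least 2 libraries, a pseudocount of 0.1, robust empirical Bayes, a fit of the compared groups alone, a replicate block and leaving out each library. Of the members' fold changes that left out no library, 316 kept their direction and side of the threshold, 15 lost the call, 9 gained one and 2 reversed. Of those that left out a library, 274 kept both, 27 lost the call, 7 gained one and 7 reversed. The reversed values were those of KLF2 with tamoxifen against vehicle (0.086 under median-of-ratios scaling, -0.82 to 0.62 leaving out a library) and of KLF3 with tamoxifen against estradiol (0.34 and -0.20 to 0.18), and, leaving out a library, of KLF2 (-0.14 to 1.30) and KLF4 (-0.18 to 0.50) with tamoxifen plus alpelisib against tamoxifen, of KLF2 with tamoxifen against estradiol (-0.54 to 0.90) and of KLF15 with tamoxifen plus alpelisib against vehicle (-0.40 to 0.13). None of these passed the threshold with all libraries, and the cause was not tested.

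Leaving out a library, 0 to 6 members were called with tamoxifen plus alpelisib against tamoxifen (6 with all libraries), 4 to 6 with tamoxifen against vehicle (5), 4 to 6 with estradiol against vehicle (5), 5 to 7 with tamoxifen against estradiol (7) and 1 to 4 with tamoxifen plus alpelisib against vehicle (3). Without tamoxifen library 1, 3 remained with tamoxifen plus alpelisib against tamoxifen, those of KLF5, KLF7 and KLF9. A group left with 1 library is assumed to vary like the others. Fitting the compared groups alone gave 2 calls with estradiol against vehicle and 9 with tamoxifen plus alpelisib against vehicle, from a fit with fewer libraries and its own spread. Without a filter, and with the replicate block, the calls of KLF3 and KLF10 with tamoxifen plus alpelisib against tamoxifen were lost.

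Whether the replicate numbers pair the samples is not known. Deviations of same-numbered libraries correlated at -0.40 (estradiol and tamoxifen), -0.18 (estradiol and tamoxifen plus alpelisib) and 0.27 (tamoxifen and tamoxifen plus alpelisib). With 2 libraries per group such values can neither show nor exclude pairing. With the replicate block 4 members were called with tamoxifen plus alpelisib against tamoxifen, 4 with tamoxifen against vehicle, 4 with estradiol against vehicle, 7 with tamoxifen against estradiol and 2 with tamoxifen plus alpelisib against vehicle. KLF15 has no value under the filter of 2 libraries or without estradiol library 2, nor in comparisons of tamoxifen plus alpelisib with tamoxifen or vehicle, or of tamoxifen with vehicle, fitted alone, and the vehicle library could not be left out of comparisons with it.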
